A study of Mus musculus with 2 samples.

Results

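Pyroptosis and necroptosis are forms of lytic cell death, and 9 genes that encode their core machinery were followed across the cells of B16F10 mouse melanomas: Nlrp3, Pycard, Casp1, Casp4, Gsdmd, Casp8, Ripk1, Ripk3 and Mlkl. They were taken from the 27998 genes of the deposited tables by symbol alone, and each symbol matched 1 row. Their unique molecular identifiers (UMIs, each standing for 1 captured RNA molecule) were summed over the cells of each class in each library and divided by all UMIs of that class, as CPM (the count scaled to a total of 1000000). The classes were built from clusters named by marker genes, and melanoma cells were kept as a class of their own.

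Pyroptosis begins with a sensor. NLRP3 responds to cell stress and, through the adaptor ASC (the product of Pycard), gathers caspase-1, which matures interleukin-1β and interleukin-18 and cuts gasdermin D (Gsdmd) so that it forms pores in the plasma membrane. Casp4 encodes the mouse caspase that binds bacterial lipopolysaccharide in the cytosol and cuts gasdermin D directly. In necroptosis the kinase RIPK1 engages the kinase RIPK3, RIPK3 phosphorylates MLKL, and MLKL then ruptures the membrane, while caspase-8 holds this route back and drives apoptosis. Macrophages and monocytes are known for carrying most of this machinery, and interferon is known to raise the transcription of several of these genes.

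Both groups were C57BL/6 mice bearing subcutaneous B16F10 tumors, a line derived from a C57BL/6 melanoma, and tumors were taken on day 14. The control hosts were Usp18f/f, with both floxed Usp18 alleles and no Cre; the other hosts were Usp18f/f LysM-Cre, in which Cre is expressed from the Lyz2 locus and acts in macrophages, monocytes and neutrophils and to a lesser extent in some dendritic cells. Usp18 encodes a protease that removes ISG15 and restrains signalling from the type I interferon receptor. Live CD45+ cells from 4 pooled tumors per group went into 1 droplet library of the 3' kind, with about 8000 cells targeted. With 1 library per group nothing can be tested between the groups, and every interval given is a 95% interval for counting error only.

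The control library held 7754 barcodes and 43412346 UMIs, and the other 6063 barcodes and 48167632 UMIs, of which 6684 and 5466 cells passed the filters; 8 barcodes occurred in both. In mononuclear phagocytes Usp18 was at 18.1 CPM in the control library and at 94.5 CPM in the library labelled knockout, 5.22-fold higher (interval 4.59 to 5.95). No loss of Usp18 RNA was thus seen, but a 3' tag outside the deleted stretch would not test the deletion. Lyz2, whose locus carries the Cre, was at 9113 and 17.4 CPM, which goes with the label. The deletion of Usp18 itself was not tested, and the label is used as a name only. Cells with Xist and no Y-linked UMI made up 36.4% of the cells that could be sexed in the control library and 86.1% in the other, so host sex differed with the group and cannot be told apart from it except within cells of 1 sex.

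On GRCm38 (mm10) Casp1 (chromosome 9, 5298517 to 5307265) and Casp4 (chromosome 9, 5308828 to 5336783) lie 1562 bases apart on the plus strand. Casp8 lies on chromosome 1 (58795374 to 58847503), Nlrp3 on chromosome 11 (59541568 to 59566956), Gsdmd on chromosome 15 (75862327 to 75867408) and Ripk1 on chromosome 13 (34002363 to 34037147), all on the plus strand. On the minus strand are Pycard (chromosome 7, 127989708 to 127993867), Ripk3 (chromosome 14, 55784995 to 55788865) and Mlkl (chromosome 8, 111311797 to 111338177). Of the 9, Ripk1 was the member that overlapped another gene of the table, Serpinb6a on the opposite strand.

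The promoters of Casp4 and Mlkl, the members that differed most between the libraries, and that of Ripk1, which differed little, are printed here as RefSeq gives them for GRCm38.p6, from 250 bases before to 50 after a transcription start. Each was searched on both strands for GAAANNGAA (from the core of an interferon-stimulated response element, ISRE), TTCNNNGAA (a gamma-activated site, GAS, for STAT dimers) and GGNNNTTCC (from the core of an NF-kB site), and capitals mark every match. The Casp4 promoter (chr9:5308599-5308898, plus strand) held 3 NF-kB-type matches, none of which overlapped another, and neither of the interferon-type motifs. The Mlkl promoter (chr8:111338156-111338455, minus strand) held none of the motifs, and that of the second of 2 Ripk1 entries (chr13:34002624-34002923, plus strand) held 2 GAS-type matches and 1 ISRE-type match, the last overlapping the second GAS-type match.
Casp4: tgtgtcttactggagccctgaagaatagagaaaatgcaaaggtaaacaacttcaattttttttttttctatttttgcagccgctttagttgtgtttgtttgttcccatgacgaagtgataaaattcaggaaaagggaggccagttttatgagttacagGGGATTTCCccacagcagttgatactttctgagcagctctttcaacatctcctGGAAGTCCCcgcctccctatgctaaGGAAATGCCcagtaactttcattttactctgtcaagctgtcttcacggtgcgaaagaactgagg
Mlkl: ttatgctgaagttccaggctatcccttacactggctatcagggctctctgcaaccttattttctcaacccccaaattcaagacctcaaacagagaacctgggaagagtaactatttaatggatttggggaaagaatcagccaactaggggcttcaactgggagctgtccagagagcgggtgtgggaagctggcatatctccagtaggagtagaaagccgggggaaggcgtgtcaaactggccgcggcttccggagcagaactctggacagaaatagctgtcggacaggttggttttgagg
Ripk1: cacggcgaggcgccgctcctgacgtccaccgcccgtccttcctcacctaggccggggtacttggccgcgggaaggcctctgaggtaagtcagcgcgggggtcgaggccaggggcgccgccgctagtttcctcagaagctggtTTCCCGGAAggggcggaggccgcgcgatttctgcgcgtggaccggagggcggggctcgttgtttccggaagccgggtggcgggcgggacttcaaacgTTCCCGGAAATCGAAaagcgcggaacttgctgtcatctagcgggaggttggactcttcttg
Over the 27025 promoters of the same length, 8.57% held the ISRE-type motif, 8.47% the GAS-type motif and 18.4% the NF-kB-type motif. The promoters of Casp1, Casp8, Pycard and the first Ripk1 entry held none of the 3, that of Ripk3 held 1 ISRE-type match, those of the 2 Nlrp3 entries 1 and 2 NF-kB-type matches, and Gsdmd was not among the entries used. A match is a string of letters and not a measured site, and a window without one says nothing about the factor.

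Each gene had its own order of cell classes. Nlrp3, the sensor, was in the control library highest in neutrophil-like cells, at 182 CPM (interval 151 to 217, 539 cells). Monocyte-like cells followed at 58.7 CPM, undivided phagocytes (a cluster led by Ccl24, Ccl7 and Spp1 that carried both macrophage and monocyte markers) at 48.3 CPM, type 2 conventional dendritic cells (cDC2-like) at 38.1 CPM and macrophage-like cells at 25.9 CPM. Neutrophil-like cells stood clear of the next class, while the neighbours from monocyte-like cells to cDC2-like cells overlapped in their intervals. Lymphocytes were close to 0: the control library had 1 Nlrp3 UMI over 1263 T-cell-like cells and none over 1442 B-cell-like or 262 NK-cell-like cells, which allows up to 1.33 and 4.24 CPM. In the library labelled knockout the first places went to monocyte-like cells at 76.9 CPM, undivided phagocytes at 59.1 CPM and cDC2-like cells at 54.9 CPM. That library held 28 neutrophil-like cells, too few to be ranked, with 14 Nlrp3 UMIs in all.

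**Figure D1:**
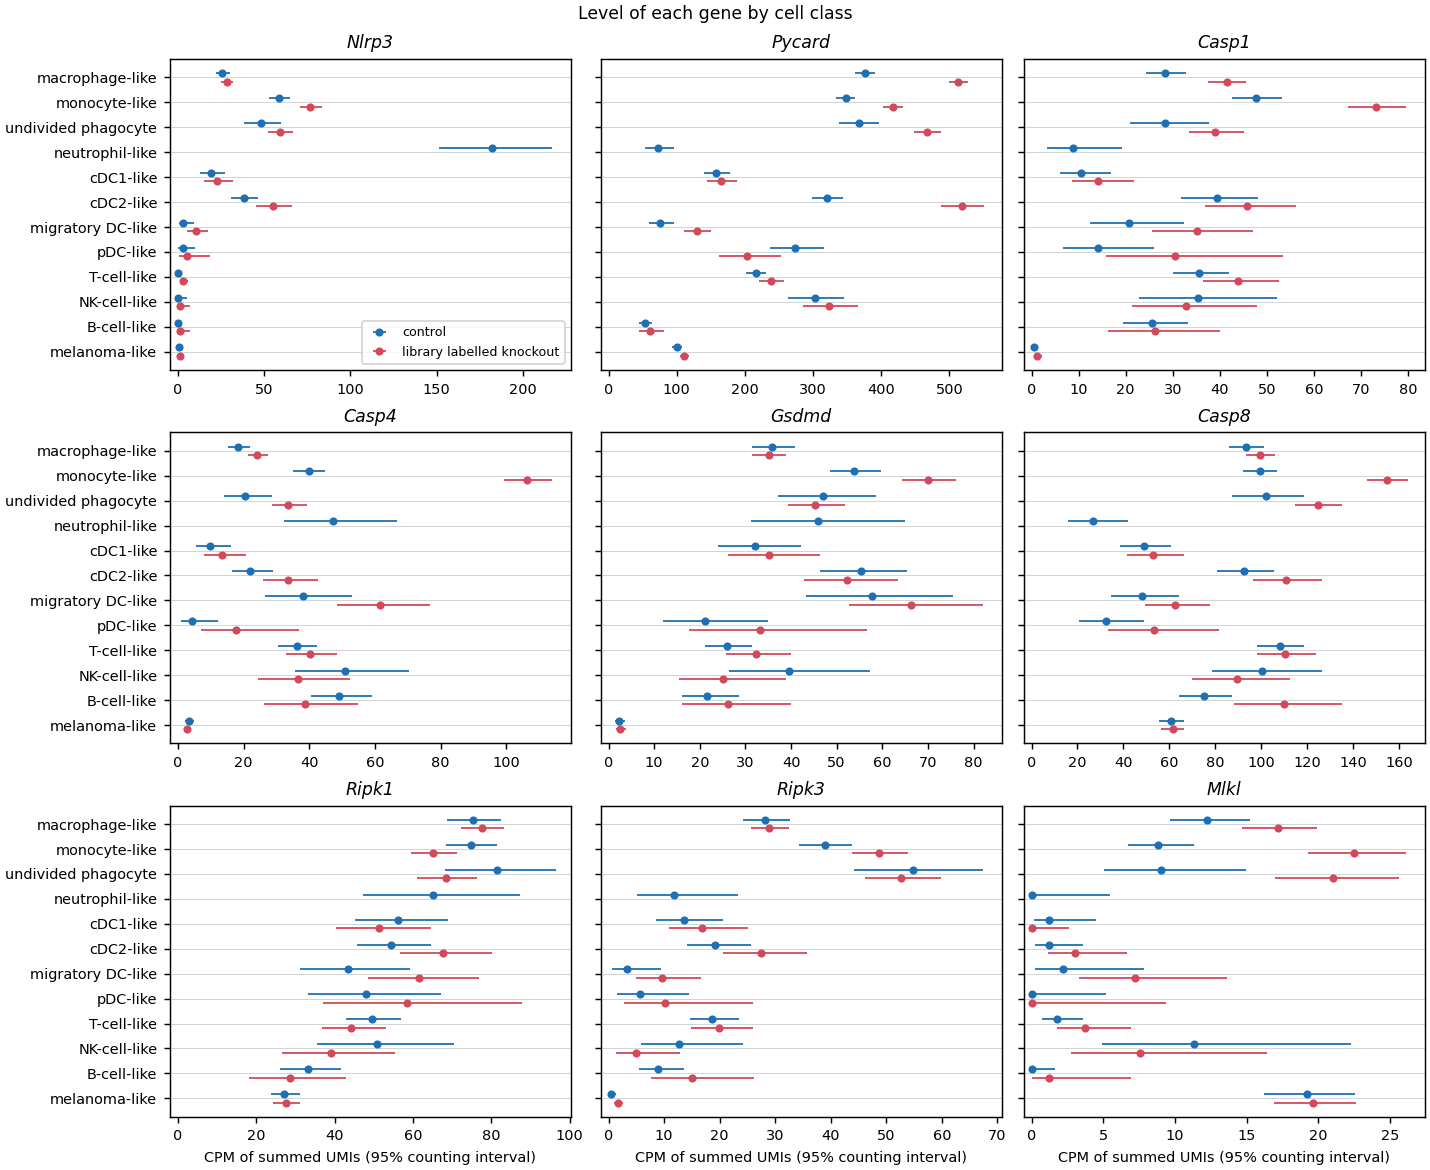
CPM of each of the 9 genes (a panel each, linear axis) in each cell class, control library in blue and library labelled knockout in red; bars are exact Poisson 95% intervals, and classes with under 30 cells in a library are left out. Nlrp3 is highest in control neutrophil-like cells at 182 CPM, and in melanoma-like cells Casp1 and Ripk3 sit near 0 while Mlkl is at 19.2 and 19.6 CPM.

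Pycard, the adaptor between sensor and caspase, was spread more widely. Control macrophage-like cells had 376 CPM (361 to 391), undivided phagocytes 367 CPM, monocyte-like cells 348 CPM and cDC2-like cells 321 CPM, with overlapping intervals between neighbours. NK-cell-like cells had 302 CPM and plasmacytoid dendritic (pDC-like) cells 274 CPM, whereas B-cell-like cells were lowest at 54.0 CPM (44.8 to 64.4). In the library labelled knockout cDC2-like cells at 518 CPM and macrophage-like cells at 513 CPM came first, with overlapping intervals, and B-cell-like cells were again lowest at 61.1 CPM.

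Casp1, the inflammasome protease, was highest in monocyte-like cells of both libraries, at 47.7 CPM (42.7 to 53.2) in the control and 73.2 CPM (67.3 to 79.5) in the library labelled knockout. In the control the next classes were cDC2-like cells at 39.3 CPM, T-cell-like cells at 35.6 CPM and NK-cell-like cells at 35.3 CPM, each overlapping its neighbour. In the library labelled knockout the monocyte-like cells stood clear of cDC2-like cells at 45.7 CPM. Type 1 conventional dendritic (cDC1-like) cells were low in both, at 10.5 and 14.1 CPM.

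Casp4 had unlike orders in the libraries. In the control it was led by NK-cell-like cells at 50.9 CPM (35.6 to 70.4), B-cell-like cells at 49.1 CPM, neutrophil-like cells at 47.3 CPM and monocyte-like cells at 39.8 CPM, and the intervals of neighbours overlapped. In the library labelled knockout monocyte-like cells were first and clear of the rest at 106 CPM (99.2 to 114), ahead of migratory dendritic (migratory DC-like) cells at 61.4 CPM. Macrophage-like cells were low among the phagocytes in both, at 18.3 and 24.2 CPM.

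Gsdmd, the pore, differed little among the leading classes. Control values ran from 57.7 CPM in migratory DC-like cells through 55.3 CPM in cDC2-like and 53.9 CPM in monocyte-like cells to 35.9 CPM in macrophage-like cells, and every pair of neighbours overlapped as far as pDC-like cells at 21.2 CPM. Melanoma-like cells stood apart from all of these at 2.33 CPM (1.38 to 3.69) in the control and 2.58 CPM in the other library.

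The brake Casp8 and the kinase Ripk1 were found in every class. Casp8 in the control lay between 108 CPM in T-cell-like cells and 92.6 CPM in cDC2-like cells for the first 6 classes, which overlapped one another in turn, and reached 26.6 CPM in neutrophil-like cells. In the library labelled knockout monocyte-like cells led at 155 CPM (146 to 164), clear of undivided phagocytes at 125 CPM. Ripk1 ran from 81.4 CPM in undivided phagocytes to 27.2 CPM in melanoma-like cells of the control, and no neighbouring classes were apart.

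Ripk3 and Mlkl, the kinase and the executioner of necroptosis, had unlike patterns. Ripk3 was highest in undivided phagocytes, at 54.9 CPM (44.2 to 67.4) in the control, then in monocyte-like cells at 38.9 CPM and macrophage-like cells at 28.2 CPM, and these 3 were clear of one another. Its low end was melanoma-like cells at 0.519 CPM, 4 UMIs over 149 cells. In the library labelled knockout Ripk3 was at 52.7 CPM in undivided phagocytes and 48.8 CPM in monocyte-like cells, with overlapping intervals. Mlkl was highest in melanoma-like cells of the control, at 19.2 CPM (16.2 to 22.5), clear of macrophage-like cells at 12.2 CPM. In the other library the Mlkl order was monocyte-like cells at 22.5 CPM, undivided phagocytes at 21.0 CPM and melanoma-like cells at 19.6 CPM, each overlapping its neighbour. No Mlkl UMI was seen in control neutrophil-like, pDC-like or B-cell-like cells, which allows up to 4.43, 4.24 and 1.33 CPM.

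Melanoma-like cells, which a CD45 gate is meant to leave out, thus carried a split set. They had the full melanoma list (all 7 markers detected, 16609 and 16171 CPM in sum) and, in the control and the other library, 60.8 and 61.4 CPM of Casp8, 100.2 and 111 CPM of Pycard, 27.2 and 27.6 CPM of Ripk1 and 19.2 and 19.6 CPM of Mlkl. Against these stood 0.519 and 1.24 CPM of Casp1, 3.37 and 2.69 CPM of Casp4, 2.33 and 2.58 CPM of Gsdmd, 0.778 and 1.03 CPM of Nlrp3, and 0.519 and 1.65 CPM of Ripk3. The first 4 genes were present and the other 5 near 0, in both libraries alike. Macrophage markers in the same cells summed to 1323 and 1512 CPM, none of the 9 at 0, and their part in the low values was not tested.

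In mononuclear phagocytes as a whole (macrophage-like, monocyte-like and undivided cells together, 1895 cells in the control and 2708 in the library labelled knockout) Casp4 and Mlkl differed most between the libraries. Casp4 was at 28.4 CPM in the control (422 UMIs) and 54.4 CPM in the other (1211 UMIs), 1.92-fold higher (1.71 to 2.14). Mlkl was at 10.3 CPM (153 UMIs) and 19.8 CPM (440 UMIs), 1.92-fold higher (1.59 to 2.32). For both genes the intervals of the libraries were well apart, and these 2 of 9 members were past 1.5-fold higher, where 6.18% of the 11903 genes with at least 20 UMIs were. None of the 9 was past 1.5-fold lower, where 5.57% of genes were.

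The inflammasome members were higher by less. Pycard was at 362 and 471 CPM, 1.30-fold higher (1.26 to 1.34), and Casp1 at 37.2 and 51.8 CPM, 1.39-fold higher (1.26 to 1.54). Nlrp3 was at 43.4 and 51.3 CPM, 1.18-fold higher (1.07 to 1.30). Gsdmd, the pore that both caspases cut, was at 45.4 and 49.2 CPM, and its 1.08-fold ratio has an interval of 0.984 to 1.20 that includes no difference.

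Among the members of the necroptosis route other than Mlkl, Casp8 was at 97.0 and 124 CPM, 1.27-fold higher (1.19 to 1.36). Ripk3 was at 36.1 and 40.6 CPM, 1.13-fold higher (1.01 to 1.25), and Ripk1 at 75.8 and 71.4 CPM, a ratio of 0.943 (0.873 to 1.02). The ratios of both kinases thus lay closer to 1 than those of Mlkl, the target of RIPK3, and of Casp8. The median log2 ratio of the 9 members was 0.35, beside -0.038 for all genes tested. Markers of other cells also differed in these cells: neutrophil markers summed to 171 and 62.1 CPM, T-cell markers to 24.2 and 45.1 CPM, and erythroid markers to 1.08 and 218 CPM, with 1 of 8 T-cell markers at 0 in the library labelled knockout, 1 of 5 erythroid markers at 0 in the control, and no neutrophil marker at 0. Their part in the result was not tested.

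For Casp4, Mlkl, Casp8 and Casp1 the ratios were largest in the monocyte-like cells (1115 and 1297 cells) among the 3 kinds of phagocyte. There Casp4 was at 39.8 and 106 CPM, 2.67-fold higher (2.33 to 3.08), and Mlkl at 8.81 and 22.5 CPM, 2.55-fold higher (1.89 to 3.48). Casp8 was at 99.3 and 155 CPM, 1.56-fold higher (1.42 to 1.71), and Casp1 at 47.7 and 73.2 CPM, 1.53-fold higher (1.34 to 1.76). In each of these 4 the libraries' intervals were apart, which puts 4 of 9 members past 1.5-fold higher, where 7.63% of 10544 genes were, and 0 lower, where 8.99% were. Nlrp3 was 1.31-fold higher (1.15 to 1.49), Gsdmd 1.30-fold (1.14 to 1.49), Ripk3 1.25-fold (1.07 to 1.47) and Pycard 1.20-fold (1.14 to 1.27). Ripk1 alone was lower, at 74.8 and 65.2 CPM, a ratio of 0.872 (0.770 to 0.989).

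Casp8 and Casp1 were past the fold in monocyte-like cells only with a cluster led by Rsad2 that held 1 control cell and 186 cells of the library labelled knockout. Without it (1114 and 1111 cells) Casp8 was at 99.4 and 132 CPM, 1.33-fold higher (1.20 to 1.47), and Casp1 at 47.8 and 60.6 CPM, 1.27-fold (1.09 to 1.47). Ripk1 was then at 74.7 and 65.7 CPM, a ratio of 0.880 with an interval of 0.772 to 1.003 that includes 1. Casp4 was then 2.10-fold higher (1.81 to 2.44) and Mlkl 1.76-fold (1.27 to 2.47). This leaves 2 of 9 members past 1.5-fold higher, where 5.15% of 10377 genes were, and 0 lower, where 7.68% were, and the Casp1 ratio of monocyte-like cells then lay below that of macrophage-like cells and the Mlkl ratio below that of undivided cells, with overlapping intervals.

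Macrophage-like cells (593 and 955 cells) had smaller ratios, and 0 of 9 members were past 1.5-fold higher, where 4.58% of 10972 genes were, and 0 lower, where 5.48% were. Casp1 was at 28.4 and 41.4 CPM, 1.46-fold higher (1.22 to 1.75), Mlkl at 12.2 and 17.2 CPM, 1.40-fold (1.07 to 1.86), and Casp4 at 18.3 and 24.2 CPM, 1.32-fold (1.06 to 1.66). Pycard, at 376 and 513 CPM, was 1.37-fold higher (1.30 to 1.43), a larger ratio than in monocyte-like cells with no overlap of the intervals, although without the Rsad2-led cluster the monocyte-like ratio was 1.25-fold (1.18 to 1.32) and overlapped. The Casp4 interval of macrophage-like cells lay below that of monocyte-like cells with or without that cluster. Casp8, Gsdmd, Nlrp3, Ripk1 and Ripk3 had ratios from 0.979 to 1.10 in macrophage-like cells with intervals that include 1.

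Undivided phagocytes (187 and 456 cells) had 2 of 9 members past 1.5-fold higher where 11.1% of 9504 genes were and 0 lower where 4.65% were. These were Mlkl, at 9.05 and 21.0 CPM and 2.32-fold higher (1.34 to 4.31), and Casp4, at 20.5 and 33.7 CPM and 1.64-fold higher (1.13 to 2.46). Casp8 was 1.22-fold higher (1.03 to 1.46) there and Casp1 at 1.37-fold, with an interval of 0.991 to 1.94 that includes 1. Ripk3 was at 54.9 and 52.7 CPM, a ratio of 0.960 (0.751 to 1.24). Within undivided cells with Xist and no Y-linked UMI (32 and 379 cells) Casp4 was at 1.24-fold (0.585 to 3.16). Mlkl was there at 2.76-fold (0.738 to 23.2), on 2 control UMIs, and both intervals include 1. The library labelled knockout had 21 such cells with a Y-linked UMI and no Xist, too few for a ratio.

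**Figure D2:**
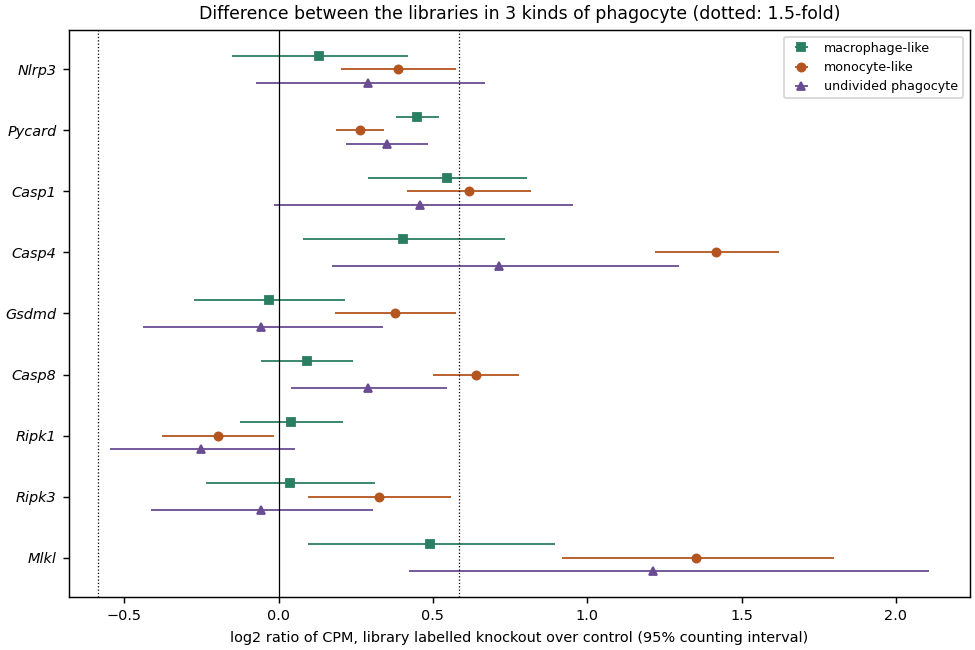
Log2 ratio of CPM, library labelled knockout over control, for the 9 genes in macrophage-like (squares), monocyte-like (circles) and undivided phagocytes (triangles); bars are exact 95% counting intervals, the solid line is no difference and dotted lines are 1.5-fold either way. Casp4 and Mlkl of monocyte-like cells lie farthest to the right, at 2.67-fold and 2.55-fold, and Ripk1 of monocyte-like cells lies left of 0.

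Within the phagocyte clusters the Casp4 difference recurred. A monocyte-like cluster led by Chil3 and Dmkn (500 and 614 cells) had 37.9 and 86.3 CPM, and one led by Hp and Chil3 (192 and 144 cells) had 70.0 and 148 CPM. The Adgre4-led cluster, a marker of non-classical monocytes, had 34.7 and 80.3 CPM (111 and 95 cells), and the Ppbp-led cluster 26.4 and 43.5 CPM. Of the 7 clusters with at least 30 cells per library and 20 UMIs of Casp4, 6 were above 1, and in those 6 the interval excluded 1; the exception was a macrophage-like cluster led by histone genes (Hist1h1b), at 21.9 and 20.6 CPM. Casp4 was past 1.5-fold higher in 5 of the 7.

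Mlkl was above 1 in all 5 clusters in which it could be measured, 2 of them with an interval that excluded 1: 8.57 and 18.8 CPM in the Chil3-led cluster and 9.05 and 21.0 CPM in the Ccl24-led undivided cluster. Pycard was above 1 in 7 of 8 clusters, below it in the Hp-led monocyte-like cluster at 335 and 300.4 CPM. Casp8 was above 1 in 7 of 8, with the interval excluding 1 in 3, and Ripk1 in 2 of 8, in none of them with an interval that excluded 1. Casp1 and Nlrp3 were each above 1 in 6 of 7, Gsdmd in 5 of 7 and Ripk3 in 3 of 6. Members other than Ripk1 and Ripk3 thus lay above 1 in most of the clusters measured. Casp4, in 6 of 7, and Pycard, in 5 of 8, were the members whose interval lay above 1 in most of them. The 20 genes of an interferon-stimulated list (19 in the tables) had median log2 ratios of 1.10 to 2.77 in the 8 clusters with at least 30 cells per library.

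The ninth cluster, monocyte-like by its markers and led by Rsad2, Ifit1bl1 and Cxcl10, was almost absent from the control. Its levels were the highest among the phagocyte clusters of the library labelled knockout for 4 members: 228 CPM of Casp4, 274 CPM of Casp8, 140 CPM of Casp1 and 59.4 CPM of Mlkl. Pycard at 330 CPM and Nlrp3 at 51.1 CPM lay within the range of the other monocyte-like clusters. Without this cluster the whole phagocytes had log2 ratios of 0.65 for Casp4, 0.24 for Casp8 and 0.33 for Casp1, in place of 0.94, 0.35 and 0.48. Casp4 and Mlkl were past 1.5-fold higher without it, at 1.57-fold (1.39 to 1.76) and 1.70-fold (1.40 to 2.06), 2 of 9 members where 5.19% of 11852 genes were, and 0 were lower, where 5.44% were.

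**Figure D3:**
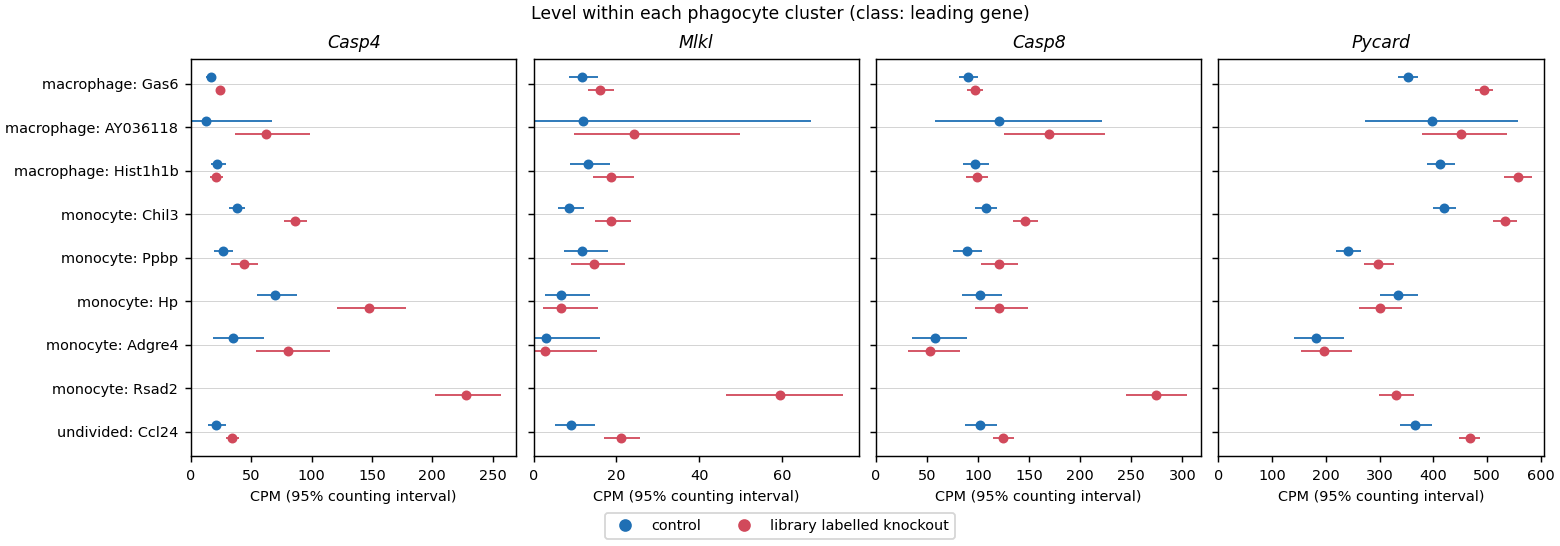
CPM of Casp4, Mlkl, Casp8 and Pycard in each phagocyte cluster, named by its class and leading gene; control in blue, library labelled knockout in red, bars exact Poisson 95% intervals, and a point is drawn where the library has at least 30 cells in the cluster. Casp4 is higher in the library labelled knockout in each monocyte-like cluster present in both, and the Rsad2-led cluster, with 228 CPM of Casp4, has a red point alone.

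To set cells of like interferon state side by side, the phagocytes with at least 1000 UMIs were thinned to 1000 UMIs and split by how many of these came from the interferon list. In the control 1254 cells had 0, 446 had 1 to 2, 118 had 3 to 9 and 21 had 10 or more; in the library labelled knockout these were 796, 770, 562 and 347 cells, and of the last 170 were in the Rsad2-led cluster. Casp4 was higher at each step in both libraries: 21.5, 39.2, 52.8 and 88.5 CPM in the control and 23.8, 43.0, 65.4 and 166 CPM in the other. Within a step the libraries were close in the first 3, at 1.10-fold (0.905 to 1.35), 1.09-fold (0.894 to 1.34) and 1.24-fold (0.916 to 1.71), and in the last at 1.87-fold (1.06 to 3.66). Casp4 thus went with the interferon list inside each library. The libraries also differed in how many cells lay at each step, and the part of this in the Casp4 difference was not tested.

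Mlkl went from 9.13 CPM at 0 to 22.1 CPM at 10 or more in the control and from 12.9 to 48.4 CPM in the other library, and Casp1 from 31.9 to 73.7 CPM and from 39.6 to 103 CPM. Unlike Casp4, both differed between the libraries at 0, Mlkl 1.41-fold (1.06 to 1.89) and Casp1 1.24-fold (1.06 to 1.46). In the later steps their intervals include 1. Casp8 went from 93.8 to 97.4 and 125 CPM over the first 3 steps in the control and from 103 to 107 and 128 CPM in the other library, in both with the interval of the third step above that of the first. At 10 or more it was at 111 CPM (61.9 to 182) in the control and 225 CPM (207 to 245) in the other. Between the libraries Casp8 was 1.10-fold higher (1.004 to 1.21) at 0 and 2.04-fold (1.22 to 3.66) at 10 or more. In the steps between, its intervals include 1. The control values of the last step rest on 21 cells, with 3 Mlkl and 15 Casp8 UMIs. Gsdmd went from 42.7 to 66.4 CPM in the control and from 38.8 to 70.3 CPM in the other, with no step in which the libraries differed beyond their intervals.

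Pycard showed another pattern. It did not follow the interferon list, at 356, 376, 379 and 339 CPM in the control and 493, 485, 482 and 348 CPM in the library labelled knockout. Within the first 3 steps it was 1.39-fold (1.32 to 1.45), 1.29-fold (1.21 to 1.38) and 1.27-fold (1.14 to 1.43) higher in that library. In the last it was at 1.03-fold (0.763 to 1.41) on 46 control UMIs, an interval that includes 1 and the ratios of those 3 steps. Nlrp3, Ripk1 and Ripk3 showed no order over the steps in either library. The steps also differ in the kind of phagocyte, since 270 of the 347 cells at 10 or more in the library labelled knockout were monocyte-like, against 339 of the 796 at 0, and the part of this in the values was not tested.

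**Figure D4:**
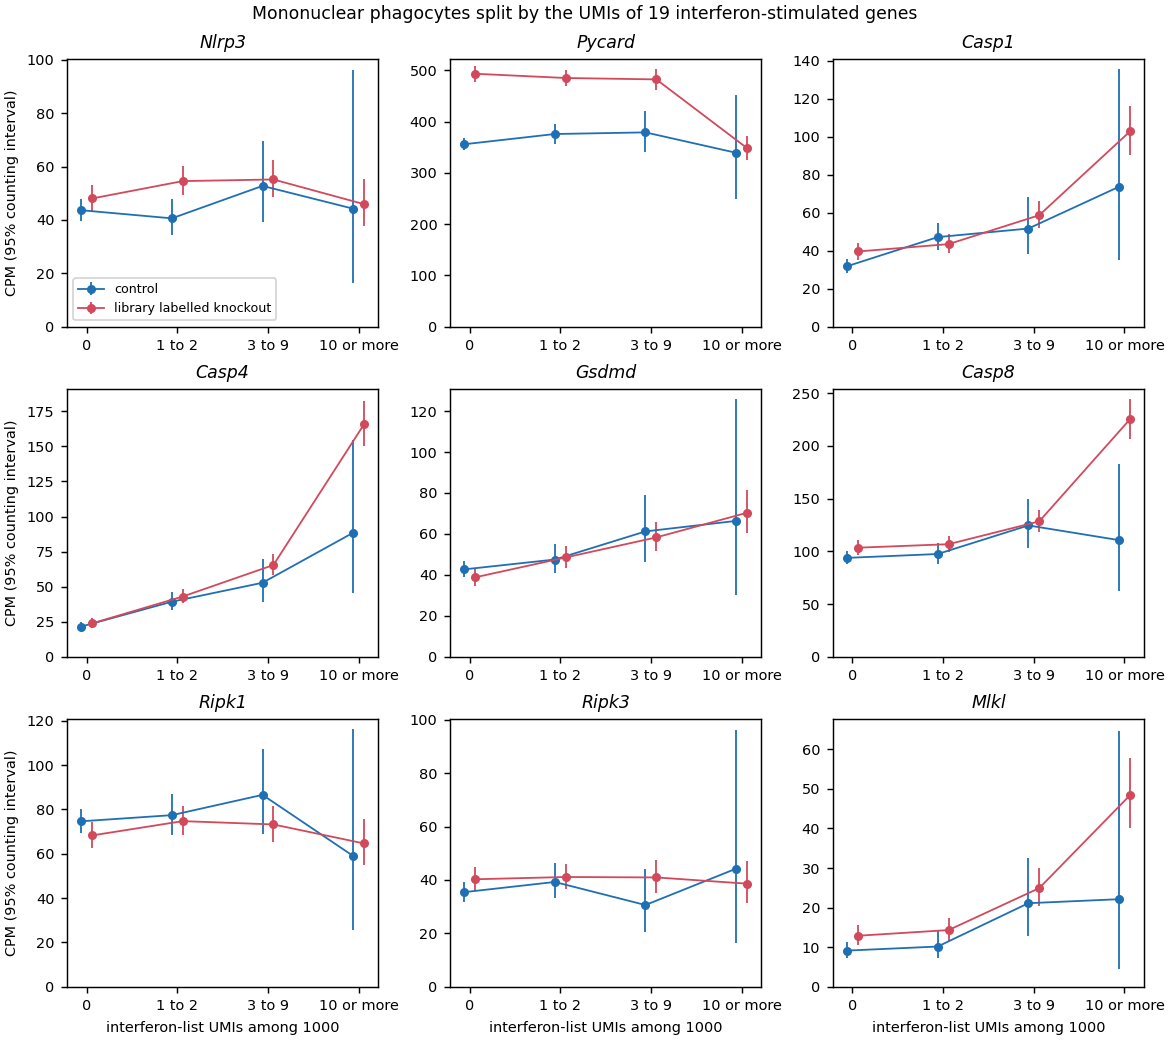
CPM of the 9 genes in mononuclear phagocytes grouped by the number of interferon-list UMIs (19 genes) in 1000 thinned UMIs per cell; control in blue, library labelled knockout in red, linear axes from 0, bars exact Poisson 95% intervals. Casp4 is higher at each step in both libraries (21.5 to 88.5 and 23.8 to 166 CPM), while Pycard is at 356 to 379 and 482 to 493 CPM over the first 3 steps.

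Since the libraries differed in sex, each member was compared again within cells with Xist and no Y-linked UMI (454 and 1778 phagocytes) and within cells with a Y-linked UMI and no Xist (904 and 354). Casp4 was higher in both, at 32.9 and 60.0 CPM in Xist cells, 1.82-fold (1.49 to 2.25), and at 26.2 and 37.0 CPM in Y-linked cells, 1.42-fold (1.14 to 1.76). Pycard was higher in both, 1.59-fold (1.49 to 1.70) and 1.32-fold (1.25 to 1.40). Mlkl was 3.51-fold higher (2.23 to 5.82) in Xist cells and 1.46-fold (1.05 to 2.02) in Y-linked cells.

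For the other members the sexes did not give the same picture. Casp8 was 1.42-fold higher (1.26 to 1.61) in Xist cells but at 98.9 and 93.1 CPM in Y-linked cells, a ratio of 0.941 (0.829 to 1.07). Ripk3 was 1.42-fold higher (1.15 to 1.76) in Xist cells and 0.820 (0.658 to 1.02) in Y-linked cells, and Casp1 1.55-fold (1.28 to 1.89) and 1.10-fold (0.902 to 1.35). Nlrp3 was at 1.17-fold and 0.901, Gsdmd at 1.07-fold and 0.822 and Ripk1 at 1.01-fold and 0.922, all with intervals that include 1. The mix of phagocytes went along with this split: 292 of the 904 Y-linked control cells were macrophage-like, against 221 of the 354 in the library labelled knockout. Inside macrophage-like cells (149 and 417 with Xist, 292 and 221 Y-linked) Casp4 was at 1.30-fold (0.856 to 2.04) and 1.07-fold (0.742 to 1.55). Both intervals include 1, unlike that of all macrophage-like cells. Mlkl was 1.85-fold higher (1.04 to 3.52) there with Xist, and at 1.31-fold (0.881 to 1.95) in Y-linked cells. Gsdmd was lower in Y-linked macrophage-like cells, a ratio of 0.742 (0.557 to 0.983). Pycard was higher in both sexes, 1.60-fold and 1.40-fold.

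Inside monocyte-like cells (273 and 982 with Xist, 516 and 112 Y-linked) Casp4 was higher in both sexes, at 47.7 and 106 CPM, 2.22-fold (1.74 to 2.87), and at 37.3 and 111 CPM, 2.98-fold (2.20 to 4.00). Casp8 was 1.64-fold (1.38 to 1.95) and 1.16-fold with an interval that includes 1, and Nlrp3 1.24-fold (0.989 to 1.56) and 1.58-fold (1.16 to 2.13). Mlkl was at 2.61 and 25.1 CPM in Xist cells (4 and 150 UMIs) and at 9.60 and 7.71 CPM in Y-linked cells (34 and 5 UMIs), the latter a ratio of 0.803 with an interval of 0.245 to 2.06. Pycard was 1.57-fold higher (1.42 to 1.74) with Xist and lower in Y-linked cells, at 371 and 318 CPM, a ratio of 0.857 (0.737 to 0.994). Ripk1 had ratios of 0.977 (0.785 to 1.23) with Xist and 1.08 (0.804 to 1.44) in Y-linked cells, and both intervals include 1. Of the members, then, Casp4 was the one whose interval lay above 1 in monocyte-like cells of both sexes. Without the Rsad2-led cluster (272 and 827 cells with Xist, 516 and 108 Y-linked) Casp4 was 1.69-fold (1.32 to 2.21) and 2.82-fold higher (2.06 to 3.81). Nlrp3 then also lay above 1 in both sexes, at 1.32-fold (1.06 to 1.67) and 1.58-fold (1.15 to 2.13).

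**Figure D5:**
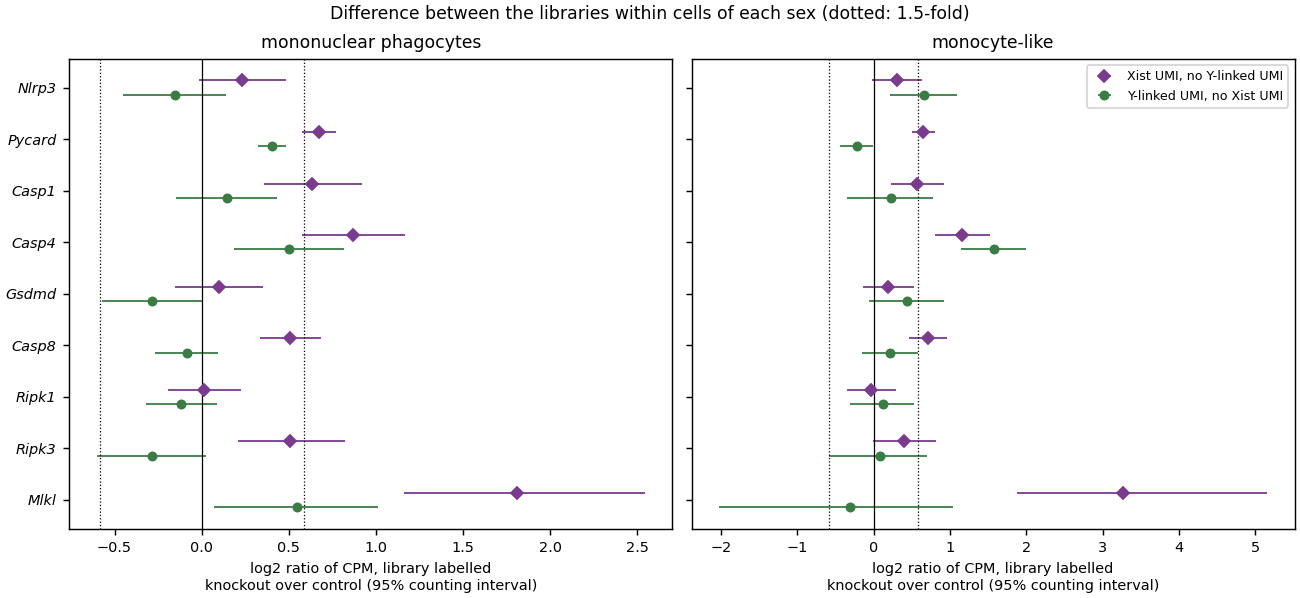
Log2 ratio of CPM, library labelled knockout over control, within cells carrying Xist and no Y-linked UMI (diamonds) and cells carrying a Y-linked UMI and no Xist (circles), for all mononuclear phagocytes (left) and monocyte-like cells (right, on a wider axis); bars are exact 95% counting intervals and dotted lines 1.5-fold. Casp4 lies right of 0 for both kinds of cell in both panels, at 1.82-fold and 1.42-fold on the left and 2.22-fold and 2.98-fold on the right.

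Among dendritic cells the Pycard ratio differed from class to class. In cDC2-like cells (319 and 245 cells) Pycard was at 321 and 518 CPM, 1.62-fold higher (1.47 to 1.78), and Casp4 at 22.1 and 33.5 CPM, 1.52-fold (1.04 to 2.22). These were the 2 of 8 measured members past 1.5-fold higher, where 7.70% of 9150 genes were, and 0 were lower, where 8.15% of genes were. Nlrp3 was at 38.1 and 54.9 CPM, 1.44-fold higher (1.08 to 1.92). Macrophage markers in these cells summed to 207 and 457 CPM and monocyte markers to 1806 and 2662 CPM, none of either list at 0, and their part in the result was not tested. Within cDC2-like cells with Xist and no Y-linked UMI (53 and 198 cells) Pycard was 1.60-fold higher (1.33 to 1.93). Casp4 was there at 1.20-fold (0.620 to 2.55) and Nlrp3 at 1.55-fold (0.879 to 2.96), with intervals that include 1. Y-linked cDC2-like cells, and either sex of the other dendritic cell classes, had under 30 cells in a library, too few for a ratio.

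Migratory DC-like cells (137 and 170 cells) had Pycard at 76.2 and 129 CPM, 1.70-fold higher (1.27 to 2.28), Casp4 at 38.1 and 61.4 CPM, 1.61-fold (1.07 to 2.48), and Casp1 at 20.7 and 35.1 CPM, 1.70-fold (0.971 to 3.08). This puts 3 of 6 measured members past the fold, in a class where 18.5% of 7445 genes were, and 0 past it lower, where 6.88% were. In the same cells monocyte markers summed to 232 and 1135 CPM (2 of 8 and 0 of 8 at 0), macrophage markers to 226 and 508 CPM (none of 9 at 0) and T-cell markers to 72.9 and 451 CPM (1 of 8 and 0 of 8 at 0), and their part was not tested. In pDC-like cells (153 and 84 cells) Pycard was the other way, at 274 and 204 CPM, a ratio of 0.744 (0.566 to 0.970). Another 3 of the 5 measured members in pDC-like cells were past 1.5-fold higher where 8.48% of 6201 genes were (Casp1, Casp8 and Gsdmd), each on at most 23 UMIs per library with an interval that includes 1. In cDC1-like cells (141 and 125 cells) Pycard was at 158 and 166 CPM, a ratio of 1.05 (0.873 to 1.25), and 0 of 8 members were past 1.5-fold higher, where 7.09% of 8350 genes were, and 0 lower, where 9.47% were.

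T-cell-like cells (1263 and 696 cells) had 0 of 7 measured members past 1.5-fold higher, where 6.75% of 10125 genes were, and 0 lower, where 7.56% were; all 7 intervals include 1. Casp8 was at 108 and 110 CPM there, Pycard at 216 and 239 CPM and Casp1 at 35.6 and 43.9 CPM. The T-cell-like cells of the library labelled knockout held 8 Nlrp3 UMIs against 1, and the macrophage markers of these cells summed to 255 CPM against 55.6 CPM, none of 9 at 0 in either. Within T cells with a Cd8a or Cd8b1 UMI (509 and 287 cells), Pycard was at 218 and 239 CPM and Casp8 at 95.3 and 95.7 CPM, with both intervals including 1.

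B-cell-like cells (1442 and 439 cells) had Casp8 at 75.2 and 110 CPM, 1.46-fold higher (1.12 to 1.90), and Casp4 at 49.1 and 38.7 CPM, a ratio of 0.787 (0.511 to 1.18). Ripk3, on 20 and 12 UMIs, was the 1 of 7 members past 1.5-fold higher where 5.40% of 8458 genes were, with an interval of 0.754 to 3.63. In these cells 0 members were past 1.5-fold lower, where 12.4% of genes were. NK-cell-like cells (262 and 209 cells) had intervals that include 1 for all 6 measured members, and the 1 past 1.5-fold lower, Gsdmd at 39.6 and 25.2 CPM, stood beside 18.0% of 7336 genes. Past 1.5-fold higher there were 0 members and 9.13% of genes.

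Melanoma-like cells were a deep cluster (141 and 184 cells, with median depths of 51331 and 53722 UMIs) and a shallow one found almost only in the library labelled knockout (8 and 197 cells, the latter with a median of 781 UMIs). Over both, 1 of 7 measured members was past 1.5-fold higher, Ripk3 on 4 and 16 UMIs, where 3.37% of 11490 genes were, and 0 were lower, where 3.32% were. In the deep cluster alone Ripk3 had 4 and 12 UMIs, too few for a ratio. Of the 4 genes present in these cells, Casp8, Ripk1 and Mlkl had ratios between 1.01 and 1.02 with intervals that include 1, and Pycard was 1.11-fold higher (1.01 to 1.22). In the deep cluster alone Pycard was at 1.08-fold, with an interval of 0.986 to 1.19 that includes 1.

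The rest of the machinery was followed in mononuclear phagocytes through lists of other genes. Each list count stands beside the share of all 11903 genes in these cells, 6.18% past 1.5-fold higher and 5.57% lower. Of 12 sensors and partners of the inflammasome, 10 could be measured, 0 were past 1.5-fold higher and 2 lower, with a median log2 ratio of -0.21. Nlrc4, which pairs with NAIP receptors for bacterial flagellin, was at 10.6 and 6.79 CPM, a ratio of 0.642 (0.510 to 0.808). The other lower gene, Naip1, was named after its values were seen and had 37 and 9 UMIs. Aim2, the sensor of cytosolic DNA, was level at 35.0 and 34.9 CPM, as was Mefv (pyrin) at 40.0 and 40.1 CPM. Nek7 was lower by less than the fold, at 70.4 and 60.1 CPM, a ratio of 0.853 (0.786 to 0.926). So was Naip2, at 46.1 and 40.5 CPM, a ratio of 0.879 (0.795 to 0.972). Aim2, Mefv, Nek7 and Naip2 were likewise named after their values were seen.

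Of 14 genes of further pores, cytokine products and membrane rupture, 6 could be measured, with 1 past the fold in each direction and a median of -0.026. Il18, the cytokine that caspase-1 matures, was at 32.7 and 56.5 CPM, 1.72-fold higher (1.55 to 1.92). The lower one, Il1a, had 51 and 47 UMIs, a ratio of 0.615 (0.405 to 0.933). It was named after its values were seen, like the other genes of this list given here. Dfna5 (gasdermin E) was also lower, at 12.8 and 9.44 CPM, a ratio of 0.738 (0.603 to 0.902). Casp12 was at 0.824, with an interval of 0.414 to 1.66 that includes 1. Il1b was at 209 and 277 CPM, 1.32-fold higher (1.27 to 1.38), and Ninj1, which ruptures the membrane after the pores have formed, at 272 and 318 CPM, 1.17-fold (1.13 to 1.22).

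In the list of the necroptosis and TNF receptor complex 2 of 18 genes were past 1.5-fold higher, where 6.18% of all genes were. In the other direction 0 were, where 5.57% of all genes were, and the median was 0.053. Zbp1, a sensor of left-handed nucleic acid that binds RIPK3, was at 81.5 and 245 CPM, 3.0-fold higher (2.82 to 3.20). Tlr3, which reaches RIPK3 through TRIF, was at 4.11 and 9.93 CPM, 2.42-fold (1.81 to 3.27). The remaining 16, among them the ligases, adaptors and Tnfrsf1a, had ratios between 0.827 and 1.27.

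None of 14 apoptosis genes was past the fold in either direction (median 0.030), nor was any of 12 measured genes of ESCRT, which mends membranes (median 0.025), nor any of 14 genes of a dissociation stress list (median -0.096). By contrast 19 of 19 interferon-stimulated genes were past 1.5-fold higher, with a median of 2.68, led by Ifi44 at 1.75 and 30.8 CPM, Rsad2 at 41.4 and 604 CPM, Ifit3 at 19.7 and 216 CPM and Oasl1 at 11.5 and 121 CPM. The interferon list was 19 of 19 higher in monocyte-like cells too (median 3.38), where 7.63% of all genes were. In macrophage-like cells it was 16 of 19 (median 1.65), where 4.58% of all genes were. Neither Zbp1 nor Tlr3 belongs to that list as it was written here.

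Over 20 points (10 classes with at least 100 cells in both libraries, each library a point) the genes whose levels ran most like each member were found by Pearson correlation of log2(CPM + 1). Casp1 was nearest to Parp14 (r = 0.97), Fam26f (0.96) and Apbb1ip (0.94), and Casp4 to 2810474O19Rik (0.96), Gbp9 (0.95) and Gbp3 (0.95). Nlrp3 ran with Atf3 (0.99), Pid1 (0.98) and Tgfbi (0.98), and Gsdmd with Dusp1 (0.96), Pik3r5 (0.95) and Tagln2 (0.95). These are descriptions over points that share libraries and differ in depth, with no test.

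Ripk1 ran with Lair1 (0.95), Cd200r1 (0.94) and Arpc2 (0.94), Ripk3 with Entpd1 (0.91), Egr2 (0.91) and Cept1 (0.90), and Pycard with Cotl1 (0.92), Dok2 (0.91) and Emp3 (0.91). Casp8 was nearest to Plec (0.91), Tmem50a (0.88) and Fam46a (0.87), and Mlkl to St7 (0.88), March8 (0.88) and Appl2 (0.88). Between members the highest values were 0.90, for Casp1 with Gsdmd and for Casp1 with Casp4. Mlkl was the least like the rest, from -0.21 with Gsdmd to 0.47 with Pycard.

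Per cell these transcripts were sparse. With every cell thinned to 1000 UMIs, which left out 56 control and 233 other phagocytes below that depth, Casp4 was seen in 3.48% (2.69 to 4.42) of control phagocytes and in 6.02% (5.12 to 7.03) of those of the library labelled knockout. Without thinning these shares were 17.7% and 29.0%, at median depths of 6557 and 5996 UMIs per cell. Mlkl was seen in 1.09% (0.666 to 1.67) and 2.26% (1.71 to 2.93) of thinned phagocytes (7.02% and 13.5% unthinned), and Pycard in 27.4% and 32.9% (75.8% and 75.1% unthinned).

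B-cell-like cells, in which Nlrp3 and Mlkl had at most 1 UMI per library, were counted in the same way for comparison: after thinning Nlrp3 was seen in 0 of 1387 control cells and in 0.238% of the other library's, against 4.89% and 5.94% of phagocytes, and Mlkl in 0 cells of either library. A count of 0 allows up to 0.216% of the control and, for Mlkl, 0.713% of the other cells to have a UMI at this depth, which sets no limit on how many express the gene. Unthinned, these were 0% and 0.228% of B-cell-like cells for each gene and 23.4% and 27.4% of phagocytes for Nlrp3. The B-cell-like median depths were 1494 and 1761 UMIs. Intervals of shares are exact Clopper-Pearson intervals.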

How the data were processed

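The deposited tables hold raw UMI counts per gene and barcode, whole numbers with no normalization; they came from Cell Ranger 3.0.1 on mm10, per the submitters' processing notes, and the smallest barcode held 500 UMIs. A barcode was retained with 200 or more genes and no more than 10% of its UMIs from mitochondrial genes, and the barcodes with the highest Scrublet scores (scanpy 1.11.5) were removed at 0.8% per 1000 cells, 402 in the control and 263 in the other library. Both libraries were clustered together (2000 variable genes, 30 principal components, 15 neighbours, Leiden resolution 1, leidenalg 0.10.2) without the 9 members, the listed genes, Usp18, Lyz2, sex-linked genes or interferon-stimulated families. Of 28 clusters, 26 were named from fixed markers (at least 3 of them at 0.5 log2 above other cells and in 10% of cells, and no other class with more markers among the 10 leading genes). The clusters left unnamed were a mixed T and NK cluster (370 and 300 cells) and a mixed cDC2 and T cluster (6 and 74 cells).

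CPM has exact Poisson 95% intervals, and ratios of CPM have exact conditional binomial 95% intervals (scipy 1.17.1). A ratio needed 20 UMIs over both libraries and 30 cells in each, called past the fold at 1.5; a count of 0 was given the limit that 3 UMIs allow. With 1 library per group there is no test and no p-value. Simulated counts with known folds were used to test the ratio script. Genes are named by rule: all members, Usp18 and Lyz2, per list up to 4 genes past the fold with the largest ratio and at least 100 UMIs, and the 3 genes most like each member; other names are said to have been chosen after their values were seen. The members, lists, the undivided phagocyte class, the families left out of clustering, the eligibility of a class name, the interferon steps, 2 alternatives (without the Rsad2-led and without a shallow macrophage-like cluster) and the motif letters were chosen with earlier results of these data known or after seeing the data. The other alternatives concerned scaling, doublets, cell filters, class building, cell weighting, sex and free RNA. Of the symbols listed, Gsdme (in the tables as Dfna5) and Mx2 were not used under those names.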

Additional observations from a re-analysis of the deposited data

Results flagged for a closer look

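Pycard had opposite directions within monocyte-like cells of each sex: its log2 ratio, library labelled knockout over control, was 0.65 in cells with Xist and no Y-linked UMI and -0.22 in cells with a Y-linked UMI and no Xist. Both counting intervals leave out 0. The difference between the sexes was not tested, since each rests on 1 library per group. In the same cells the Casp4 ratios were 2.22-fold and 2.98-fold.

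Pycard also had opposite directions in a pair of dendritic cell classes, with a log2 ratio of 0.76 in migratory DC-like cells and -0.43 in pDC-like cells, again with intervals that leave out 0. That difference was not tested either. In migratory DC-like cells monocyte markers summed to 232 CPM in the control and 1135 CPM in the library labelled knockout, and in pDC-like cells to 5825 and 6853 CPM.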

How the results depend on the processing

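No paired analysis was possible because each group is 1 library and the labels carry no replicate numbers. For the phagocyte ratios 103 of 126 values under an alternative kept their direction and stayed within the counting interval, and for the ratios of other classes 637 of 735 did. Casp4 and Mlkl were higher in the library labelled knockout under all 14 alternatives (log2 ratio 0.50 to 1.24 and 0.54 to 1.81), as were Casp1 (0.14 to 0.63) and Pycard (0.28 to 0.67). In Y-linked cells the phagocyte ratio reversed for Casp8 (-0.087), Nlrp3 (-0.15) and Ripk3 (-0.29). There Gsdmd, whose interval included 0, went from 0.12 to -0.28, and Casp1 (0.14), Casp4 (0.50) and Mlkl (0.54) fell below their intervals. In Y-linked monocyte-like cells the ratio reversed for Pycard (-0.22), Ripk1 (0.12) and Mlkl (-0.32). In Xist cells the phagocyte ratio moved to 0.63 for Casp1, 0.51 for Casp8, 0.67 for Pycard, 0.51 for Ripk3 and 1.81 for Mlkl, and Ripk1 turned from -0.085 to 0.015 with an interval that includes 0. With cells weighted equally Casp4 was at 1.24, Casp8 at 0.55 and Ripk3 at 0.37; with clusters weighted equally Casp1 was at 0.20, Nlrp3 at 0.41 and Pycard at 0.28. A mitochondrial limit of 5% gave 0.47 for Casp8. Without the Rsad2-led cluster, an alternative chosen after seeing the data, Casp1 was at 0.33, Casp4 at 0.65 and Casp8 at 0.24, and in monocyte-like cells Casp8 (0.41) and Casp1 (0.34) were no longer past 1.5-fold. The causes were not tested. Of all phagocyte genes, 736 were past 1.5-fold higher and 663 lower, and 396 and 290 of those with at least 100 UMIs. Depth limits Mlkl most, with 153 UMIs over all control phagocytes.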
